A study of Mus musculus with 3 samples.

Results

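A group of 10 genes of neutrophil recruitment and of the interleukin-1 (IL-1) family was followed in immune cells of mouse melanomas: the chemokines Cxcl1, Cxcl2 and Cxcl3, their receptor Cxcr2, the cytokines Il1a, Il1b and Il18, the receptor antagonist Il1rn, the decoy receptor Il1r2 and the inflammasome sensor Nlrp3. They were chosen by symbol, and all 10 were found among the 32285 genes counted. Their unique molecular identifiers (UMIs, each standing for 1 captured RNA molecule) were summed in 5 sets of cell barcodes, called gates below, that were set by UMIs of other genes. The neutrophil gate took barcodes with at least 20 UMIs of S100a8 and S100a9 together and at least 1000 UMIs in all. The other gates needed at least 1500 UMIs: the Ly6c2 gate, meant for monocytes, at least 3 UMIs of Ly6c2; the macrophage gate at least 1 UMI each of Adgre1 and C1qa; the cDC2 gate, for type 2 conventional dendritic cells, at least 2 UMIs of Cd209a; and the Cd3 gate, meant for T cells, at least 1 UMI of Cd3e or Cd3d.

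The cells were CD45+ leukocytes from subcutaneous tumours of B16F10, a melanoma line of C57BL/6 origin, grown in C57BL/6 mice. Every mouse received activated Pmel-1 cytotoxic T lymphocytes (CTLs), which recognise gp100, an antigen of melanocytes, by vein 9 days after inoculation. Tumours were taken 3, 7 and 14 days after the transfer, and leukocytes of 3 mice in equal numbers made 1 library per day. Mice without a transfer were not analysed here, and day after transfer, age of the tumour and library cannot be told apart.

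CXCL1, CXCL2 and CXCL3 belong to the chemokines with a glutamate-leucine-arginine motif, which draw neutrophils through CXCR2; their genes sit side by side and are induced within minutes to hours by inflammatory signals that act through NF-kB. IL-1 alpha and IL-1 beta act on the same receptor and themselves induce these chemokines. IL-1 beta and IL-18 are made as precursors that caspase-1 cuts after an inflammasome such as that of NLRP3 has assembled, so that RNA is only the first step of their release. IL1RN occupies the receptor without signalling, and IL1R2 binds the ligand without passing on a signal. In tumours, neutrophils, monocytes and macrophages are known sources of most of these molecules.

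In the mm10 genome the chemokine genes lie near each other on chromosome 5, with Cxcl3 at chr5:90786103-90789600, Cxcl1 at chr5:90891241-90893115 and Cxcl2 at chr5:90903871-90905938, all on the plus strand. Il1a (chr2:129299610-129309972) and Il1b (chr2:129364570-129371139) are neighbours on the minus strand of chromosome 2, and Il1rn (chr2:24336853-24351494, plus strand) lies on the same chromosome. Cxcr2 (chr1:74153989-74161246) and Il1r2 (chr1:40074079-40125231) lie on chromosome 1, Il18 at chr9:50554827-50581840 and Nlrp3 at chr11:59541568-59566956, all 4 on the plus strand.

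The promoters of the 3 chemokines are shown because all 3 genes were higher at day 14 than at day 3 in the Ly6c2 gate by the rule given below. Each sequence is the 250 bases upstream of the start site in RefSeq (GRCm38.p6), in the gene's direction, and capitals mark matches on either strand to the NF-kB motif, which was taken as GGG, any base at 2 positions, and TTTCC.
Cxcl1, chr5:90890995-90891244 (plus strand): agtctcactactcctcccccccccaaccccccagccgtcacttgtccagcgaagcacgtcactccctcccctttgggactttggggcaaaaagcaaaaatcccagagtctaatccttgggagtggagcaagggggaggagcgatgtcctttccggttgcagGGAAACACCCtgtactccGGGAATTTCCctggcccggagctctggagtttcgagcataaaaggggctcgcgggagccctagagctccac
Cxcl2, chr5:90903649-90903898 (plus strand): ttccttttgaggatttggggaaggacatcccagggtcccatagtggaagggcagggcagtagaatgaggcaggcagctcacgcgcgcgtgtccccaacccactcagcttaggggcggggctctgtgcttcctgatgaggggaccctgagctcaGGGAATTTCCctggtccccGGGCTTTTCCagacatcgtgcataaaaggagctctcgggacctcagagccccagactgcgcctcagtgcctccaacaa
Cxcl3, chr5:90785851-90786100 (plus strand): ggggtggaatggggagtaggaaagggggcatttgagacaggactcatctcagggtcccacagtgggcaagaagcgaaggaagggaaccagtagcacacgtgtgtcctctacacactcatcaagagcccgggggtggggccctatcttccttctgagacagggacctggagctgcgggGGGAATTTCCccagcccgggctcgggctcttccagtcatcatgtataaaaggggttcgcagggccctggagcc
The letters GGGAATTTCC were present in all 3, beginning at position -71 from the start site in Cxcl1, -97 in Cxcl2 and -73 in Cxcl3. Cxcl1 had a further match on the other strand beginning at -89, and Cxcl2 a further match beginning at -78. In RefSeq, 454 of 32536 such windows (1.4%) held a match. Of the other members, only Il1rn had one, GGGTTTTTCC beginning at -51 from the third of its 3 start sites, and no match was found in the windows of Cxcr2, Il1a, Il1b, Il1r2, Il18 or Nlrp3. The AP-1 motif TGANTCA, which no NF-kB match overlaps, stood once in the Il1a window and once in the first Il1rn window, against 6.73% of all windows. A match of letters does not show that a factor bound there.

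At days 3, 7 and 14 the libraries contained 33096709, 29547433 and 35742070 UMIs, spread over 3656, 3038 and 3549 barcodes. The neutrophil gate had 100, 86 and 144 barcodes, the Ly6c2 gate 1456, 1190 and 983, the macrophage gate 248, 130 and 312, the cDC2 gate 87, 91 and 95, and the Cd3 gate 789, 970 and 1034. Median UMIs per barcode were 2218.5 to 2444.5 in the neutrophil gate and 8416.5 to 17949 in the others, so a share of barcodes with a UMI was also computed after thinning each barcode to 1000 UMIs. The gates overlapped. Of the Ly6c2 gate, 30.9%, 43.6% and 39.0% of barcodes at days 3, 7 and 14 also had a Cd3e or Cd3d UMI, and 57.0%, 53.5% and 37.0% of the Cd3 gate were also in the Ly6c2 gate; T cells can carry Ly6c2 RNA themselves. Of the macrophage gate, 58.1%, 56.9% and 37.2% were also in the Ly6c2 gate. In addition, 4.97%, 6.92% and 3.00% of the barcodes with at least 1500 UMIs also occurred in another library, among them 14.5%, 11.5% and 5.13% of the macrophage gate and 13.1%, 12.9% and 6.48% of the Cd3 gate. Results are therefore given also for barcodes in no other gate and without shared barcodes where that ends a call or moves a called value by over 1.5 times.

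The gates were checked against marker lists, and several held markers of other cells. A list of 9 neutrophil markers summed to 10968, 10968 and 15070 CPM (UMIs scaled to the total UMIs of the summed barcodes) in the neutrophil gate at days 3, 7 and 14, and all 9 were found at days 3 and 14. Ly6g, the classical surface marker of mouse neutrophils, had 2, 0 and 23 UMIs there, whereas the colony-stimulating factor receptor Csf3r had 770, 1028 and 1058 CPM. The neutrophil gate also held markers of other cells. Its 7 cDC2 genes summed to 894, 404 and 2909 CPM and its 7 T cell genes to 432, 305 and 94.99 CPM. In neutrophil barcodes of no other gate these sums were 113, 45.3 and 269 CPM and 29.5, 20.1 and 27.5 CPM. Its 7 monocyte genes summed to 1419, 779 and 1173 CPM and its 7 macrophage genes to 720, 695 and 813 CPM. In neutrophil barcodes of no other gate those were 531, 322 and 517 CPM and 693, 609 and 907 CPM. The Ly6c2 gate went against its label in part: 7 T cell markers summed to 916, 1575 and 976 CPM in it, against 33.5, 59.8 and 37.8 CPM in its barcodes that were in no other gate. Its cDC2 markers summed to 4289, 3795.5 and 4595 CPM, beside 5313, 4024 and 4356 CPM of monocyte markers. The cDC2 markers of the macrophage gate summed to 6660.2, 10947 and 7056 CPM, beside 5625, 6609.7 and 7806 CPM of macrophage markers; in its barcodes of no other gate the sums were 5650.1, 9945 and 6616 CPM beside 7630.4, 7824 and 9622 CPM. The cDC2 gate held 3482, 2544 and 2005 CPM of monocyte markers, beside 17555.5, 18379 and 18274 CPM of cDC2 markers. Of its barcodes, 35.6%, 35.2% and 25.3% were also in the Ly6c2 gate. The Cd3 gate held 2096, 1825 and 2605 CPM of cDC2 markers, beside 2236, 2939 and 2181 CPM of T cell markers. Its monocyte markers summed to 1705, 1277 and 1217 CPM. B cell, basophil and mast cell markers summed to at most 17.2 CPM in the neutrophil and Ly6c2 gates. The part of other cells' RNA in the values below was not tested beyond these splits.

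With 1 library per day there is no replicate and no test between days. A ratio of 2 days is given with its 95% Poisson interval and a share with its Clopper-Pearson interval where needed. Both cover counting error only and not the spread between mice. The Poisson interval also leaves out the spread between barcodes, so it is too narrow where a few barcodes hold most UMIs. A gene was called higher or lower at the later day where it had at least 20 UMIs in both libraries together, the ratio was at least 1.5-fold and its interval excluded 1. This is a rule of size, not a call of change. Between days 14 and 3, 8 of the 10 members reached 20 UMIs in the neutrophil gate, 10 in the Ly6c2 gate, 9 in the macrophage gate, 7 in the cDC2 gate and 9 in the Cd3 gate.

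**Figure D1:**
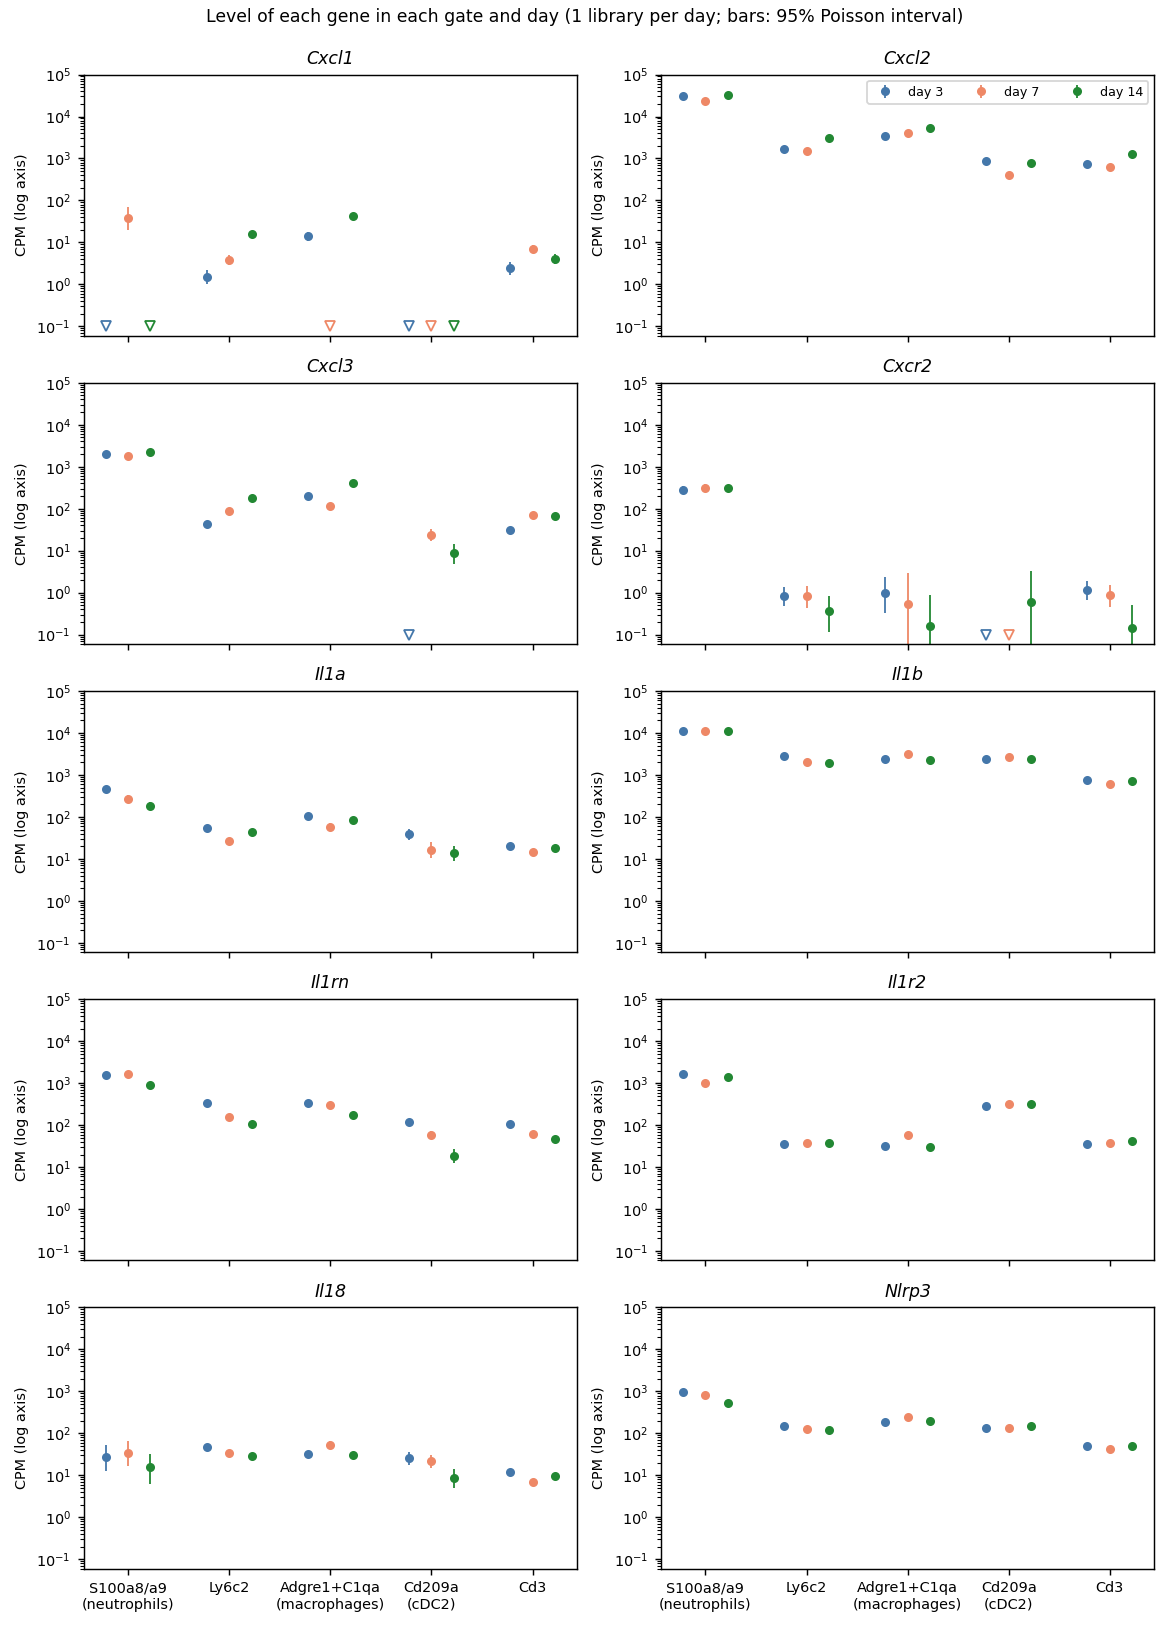
CPM of each of the 10 genes (log axis) in the 5 gates at days 3, 7 and 14, 1 library per day, with 95% Poisson intervals; open triangles at the lower edge stand for 0 UMIs. The neutrophil gate stands above all others in 8 panels, and the exceptions are Cxcl1 and Il18.

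By CPM, Cxcl2, the most studied of the inducible neutrophil chemokines in mice, was highest in the neutrophil gate itself. The neutrophil gate had 30834, 24037 and 32383 CPM at days 3, 7 and 14, that is 9932, 6849 and 14659 UMIs from 100, 86 and 144 barcodes. Nearly every barcode took part, since 97.0%, 95.3% and 99.3% held a Cxcl2 UMI, and the highest single barcode held no more than 6.10% of a day's UMIs. The macrophage gate followed with 3501, 4072 and 5429.7 CPM, and then the Ly6c2 gate with 1708, 1513 and 3124 CPM. The ranges over days of these 3 gates did not overlap. Those of the cDC2 gate (851.9, 409.6 and 776.0 CPM) and the Cd3 gate (749.6, 629.98 and 1294 CPM) overlapped with each other. The macrophage gate held 17649, 7604 and 34101 Cxcl2 UMIs in 248, 130 and 312 barcodes, which were deeper than those of neutrophils. The order by CPM therefore need not hold for UMIs per barcode.

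Over the 3 days Cxcl2 differed by less than 1.5-fold in the neutrophil gate, with day 14 at 1.05-fold of day 3 (interval 1.02 to 1.08). In the Ly6c2 gate it was 1.83-fold higher at day 14 than at day 3 (1.80 to 1.86) and 2.06-fold higher at day 14 than at day 7 (2.03 to 2.10). In the macrophage gate it was 1.55-fold higher at day 14 than at day 3 (1.52 to 1.58), but this call ended in barcodes of no other gate (1.25-fold; 5709.8 CPM at day 14 and 4586 CPM at day 3) and without shared barcodes (1.35-fold). In the cDC2 gate day 7 was 2.08-fold lower than day 3, and day 14 differed from day 3 by 1.10-fold; in the cDC2 barcodes of no other gate the values were 237, 201 and 774 CPM, so that day 14 was 3.27-fold higher than day 3. In the Cd3 gate Cxcl2 was 1.73-fold higher at day 14 than at day 3 (1.68 to 1.77), but Cd3 barcodes with fewer than 3 UMIs of Lyz2, a myeloid gene, held only 149.5, 159 and 193 CPM and passed no threshold between days 14 and 3. NK cells, set apart by their own gate, had 442, 260.2 and 425 CPM, with 19.3%, 13.1% and 29.9% of barcodes holding a UMI at median depths of 4978, 6171.5 and 5708 UMIs.

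Cxcl3, a close relative with the same receptor, showed the same order at the top and a steeper course in the myeloid gates. Neutrophils had 1987, 1849.6 and 2289 CPM at days 3, 7 and 14, with a UMI in 40.0%, 40.7% and 42.4% of barcodes; no ratio between days reached 1.5-fold. Cxcl3 was thus less evenly spread than Cxcl2, and the top 10% of neutrophil barcodes held 69.2%, 68.1% and 64.9% of its UMIs. Its level in the Ly6c2 gate was 43.7, 86.3 and 185 CPM, 1.97-fold higher at day 7 than at day 3 and 4.22-fold higher at day 14 than at day 3 (3.91 to 4.57). In the Ly6c2 barcodes of no other gate the level was 38.0, 118 and 296 CPM, a ratio of 7.81 between days 14 and 3 (6.95 to 8.78). After thinning, the share of Ly6c2 barcodes with a Cxcl3 UMI was 1.84%, 3.28% and 7.11%, in the same order as the CPM. Macrophages of the Adgre1 and C1qa gate had 197, 117 and 419.7 CPM, 1.69-fold lower at day 7 than at day 3 and 2.13-fold higher at day 14 than at day 3. In macrophage barcodes of no other gate day 7 was lower still, with 59.9 CPM against 309 CPM at day 3 (5.16-fold lower). In the Cd3 gate Cxcl3 had 31.7, 70.2 and 68.2 CPM and was 2.15-fold higher at day 14 than at day 3, but its barcodes with fewer than 3 Lyz2 UMIs had 5.97, 9.41 and 8.76 CPM. The cDC2 gate held 0, 36 and 15 Cxcl3 UMIs, of which 34 at day 7 were in a single barcode.

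Cxcl1 was sparse in leukocytes, and a few barcodes set its values. Neutrophils held 0, 11 and 0 UMIs at days 3, 7 and 14, the 11 in 1 barcode that was also in another gate, so that the neutrophil gate differed in this gene from Cxcl2 and Cxcl3. The cDC2 gate held none at any day, which allows at most 2.31, 2.00 and 1.75 CPM at a floor of 3 UMIs. Ly6c2 barcodes had 1.51, 3.87 and 16.2 CPM from 9, 10 and 25 barcodes, a ratio of 10.7 between days 14 and 3 (7.24 to 16.3); in its barcodes of no other gate 169 UMIs at day 14 stood against 7 at day 3 (39.2-fold; 18.6 to 98.9). Its highest single barcode held 31.9% to 44.8% of the UMIs of a day. Macrophage barcodes held 71, 0 and 263 UMIs, that is 14.1, 0 and 41.9 CPM, from 9, 0 and 24 barcodes. With the 0 set to a floor of 3 UMIs, Cxcl1 was there 8.77-fold lower at day 7 than at day 3 (5.22-fold in barcodes of no other gate). The counting interval of that ratio began at 6.95-fold. Day 14 was 2.97-fold higher than day 3 (2.28 to 3.92). In the Cd3 gate the call of a 1.64-fold higher level at day 14 than at day 3 ended without shared barcodes (1.29-fold) and turned round in barcodes of no other gate, where 3 UMIs at day 14 stood against 26 at day 3, all 26 of them in 1 barcode.

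Cxcr2, the receptor that neutrophils use to follow these chemokines, was found mainly in the neutrophil gate in the 3 libraries. It had 279, 309 and 305 CPM there at days 3, 7 and 14 (90, 88 and 138 UMIs) and no more than 1.18 CPM in any other of the 5 gates. A UMI was present in 46.0%, 44.2% and 47.9% of neutrophil barcodes, and in 28.6%, 28.0% and 29.7% after thinning, against at most 0.211% of thinned barcodes elsewhere. No ratio between days reached 1.5-fold in neutrophils; day 14 was 1.09-fold of day 3 (0.831 to 1.44). Of all Cxcr2 UMIs in the libraries, 70.4% were in barcodes of the neutrophil gate alone, and 14.8% were in barcodes outside all gates.

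Il1b, the secreted IL-1 that needs caspase-1, was found in all 5 gates at each day. Neutrophils had 11170.2, 11294 and 11151 CPM at days 3, 7 and 14, with a UMI in 96.0%, 96.5% and 94.4% of barcodes. Those were 3598, 3218 and 5048 UMIs from 100, 86 and 144 barcodes. The macrophage gate, with deeper barcodes, held 11820, 5952 and 14198 UMIs in 248, 130 and 312 barcodes. The order by CPM need not be an order per barcode. The cDC2 gate had 2421, 2707 and 2415 CPM, the macrophage gate 2345, 3187 and 2261 CPM and the Ly6c2 gate 2816, 2091 and 1965 CPM, and these 3 overlapped over days. The Cd3 gate, with 776, 604 and 715 CPM, lay below them, and its barcodes with fewer than 3 Lyz2 UMIs had 53.7, 127 and 133 CPM. With all barcodes of a gate, no ratio of Il1b between days reached 1.5-fold in any of the 5 gates. In macrophage barcodes of no other gate it had 1916, 3246 and 1980.2 CPM, 1.69-fold higher at day 7 than at day 3 and 1.64-fold lower at day 14 than at day 7. In Cd3 barcodes of no other gate it had 398, 509 and 600.02 CPM, 1.51-fold higher at day 14 than at day 3, and in those with fewer than 3 Lyz2 UMIs it was 2.48-fold higher. With all barcodes the nearest to the threshold was the Ly6c2 gate, 1.43-fold lower at day 14 than at day 3 (1.41 to 1.45), and that became a call under stricter gate thresholds. NK barcodes had 383, 322 and 158 CPM.

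**Figure D2:**
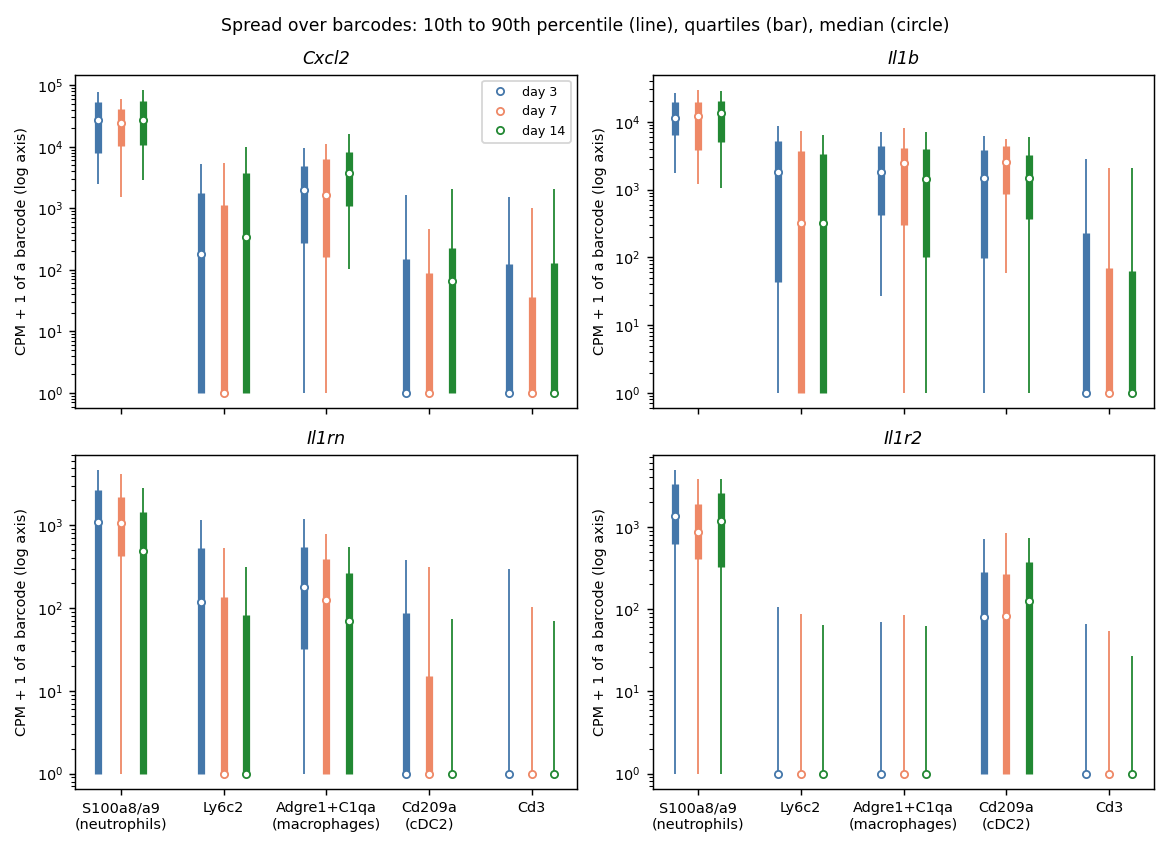
CPM + 1 of single barcodes (log axis) for Cxcl2, Il1b, Il1rn and Il1r2 in the 5 gates at days 3, 7 and 14; lines span the 10th to 90th percentile, bars the quartiles and circles the median over barcodes. In neutrophils the median barcode had 27258, 24416 and 26659 CPM of Cxcl2 and 1105, 1053 and 488 CPM of Il1rn at days 3, 7 and 14.

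Il1a, the IL-1 that is active without cleavage and can be released from dying cells, was lower at later days in neutrophils. It had 469, 270.2 and 181 CPM at days 3, 7 and 14 (151, 77 and 82 UMIs), 2.59-fold lower at day 14 than at day 3 (1.96 to 3.43), and the share of barcodes with a UMI was 33.0%, 23.3% and 14.6%. In the Ly6c2 gate it had 53.6, 27.2 and 42.9 CPM, 1.97-fold lower at day 7 than at day 3 and 1.57-fold higher at day 14 than at day 7; the step from day 7 to day 14 ended in barcodes of no other gate (1.33-fold; 58.96 CPM at day 14 and 44.2 CPM at day 7) and without shared barcodes (1.39-fold). A like shape was seen in the macrophage gate, with 108, 58.4 and 83.9 CPM; its day 14 over day 3 ratio passed the threshold only in barcodes of no other gate (1.77-fold lower) and without shared barcodes (1.65-fold lower). In the cDC2 gate Il1a rested on 50, 25 and 24 UMIs, with 29 of the 50 in 1 barcode, and the 2.75-fold lower value at day 14 than at day 3 ended without that barcode, without shared barcodes and in barcodes of no other gate, where 13 UMIs at day 14 stood against 8 at day 3. Neutrophils stood apart from the other gates over the days, and the Cd3 gate had 14.6 to 19.9 CPM.

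Il18, the other inflammasome-dependent cytokine, differed from the rest of the family in that neutrophils did not lead. They held 9, 10 and 7 UMIs (27.9, 35.1 and 15.5 CPM), too few for the rule. In the Ly6c2 gate there were 47.4, 33.9 and 29.5 CPM at days 3, 7 and 14 and was 1.61-fold lower at day 14 than at day 3 (1.43 to 1.81). Macrophage barcodes had 32.9, 53.6 and 31.2 CPM and the cDC2 gate 26.2, 22.0 and 8.75 CPM, the last 3.00-fold lower at day 14 than at day 3 on 15 UMIs against 34. In the order of levels, each of these gates overlapped with its neighbours over the days. By UMIs, 50.6% of all Il18 was in barcodes of the Ly6c2 gate alone.

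Il1rn, the antagonist that blocks the IL-1 receptor, was lower at day 14 than at day 3 in all 5 gates. Neutrophils had 1537, 1646 and 886 CPM at days 3, 7 and 14, and day 14 was 1.73-fold lower than day 3 (1.52 to 1.98). In the Ly6c2 gate the level was 344, 156 and 108 CPM, a 3.19-fold lower value at day 14 than at day 3 (3.01 to 3.37) that was 2.20-fold lower already at day 7. In the macrophage gate the level was 339, 301 and 174 CPM, 1.95-fold lower at day 14 than at day 3 (1.81 to 2.10). The cDC2 gate had 120.3, 59.5 and 18.7 CPM, 6.44-fold lower at day 14 than at day 3 (4.38 to 9.74) and 2.85-fold lower in barcodes of no other gate. The Cd3 gate had 106, 61.6 and 46.0 CPM, 2.30-fold lower at day 14 than at day 3, but its barcodes with fewer than 3 Lyz2 UMIs had 10.8, 11.7 and 8.44 CPM with no call. Between days 7 and 3 the neutrophil and macrophage gates differed by less than 1.5-fold, whereas the Ly6c2, cDC2 and Cd3 gates were already past the threshold; in cDC2 barcodes of no other gate that step turned round. For the Cd3 gate it ended in barcodes of no other gate (1.07-fold lower) and without shared barcodes (1.47-fold lower). Neutrophils stood apart from the other gates over the days, and the macrophage and Ly6c2 gates overlapped. The thinned share of barcodes with an Il1rn UMI was 60.4%, 65.6% and 44.8% in neutrophils and 24.0%, 11.7% and 8.02% in the Ly6c2 gate.

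Set against Il1b within the same barcodes, the agonist's UMIs per antagonist UMI were more numerous at day 14 than at day 3 in every gate. Neutrophils had 7.27, 6.86 and 12.6 Il1b UMIs per Il1rn UMI at days 3, 7 and 14. The Ly6c2 gate gave 8.19, 13.4 and 18.2, with an interval of 17.3 to 19.2 at day 14 against 7.98 to 8.40 at day 3, the macrophage gate 6.92, 10.6 and 13.0, and the Cd3 gate 7.34, 9.81 and 15.6. The cDC2 gate had 20.1, 45.5 and 129, and its barcodes of no other gate had 40.0, 35.4 and 122, so that there the later value was past the earlier ones at day 14 but not at day 7. Such a quotient compares days within a gate; it does not give the proportion of the 2 proteins.

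**Figure D3:**
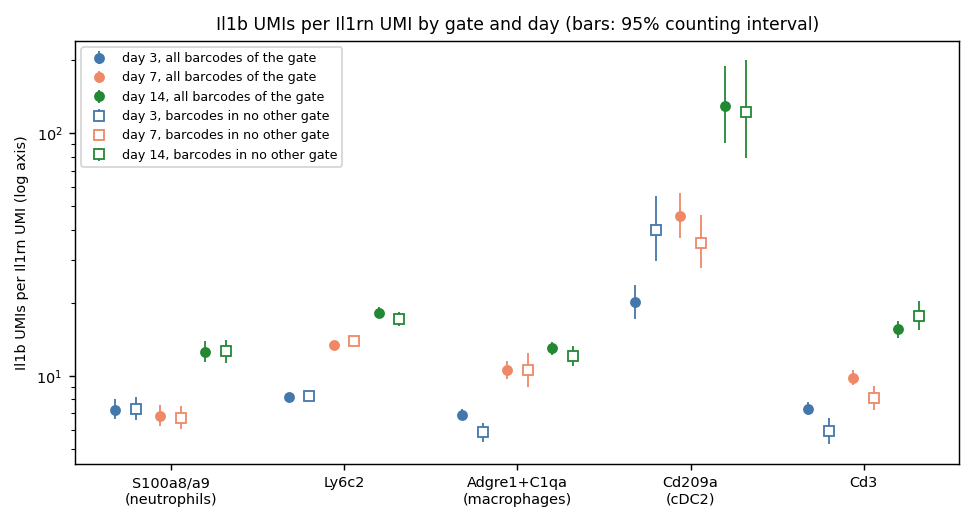
Il1b UMIs per Il1rn UMI (log axis) in the 5 gates at days 3, 7 and 14 with 95% counting intervals; filled circles are all barcodes of the gate and open squares barcodes in no other gate. The day 14 point is the highest in each gate, from 12.6 in neutrophils to 129 in the cDC2 gate.

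Il1r2, the decoy receptor that soaks up IL-1 beta, had a pattern of its own among the members. Neutrophils led with 1629.9, 1035 and 1374 CPM at days 3, 7 and 14, and 88.0%, 84.9% and 77.8% of their barcodes held a UMI. Day 7 was 1.57-fold lower than day 3 in neutrophils, and day 14 was 1.19-fold lower than day 3; in neutrophil barcodes of no other gate day 14 was 1.57-fold lower than day 3. The cDC2 gate came second and apart from the remaining gates with 279.9, 312 and 323 CPM, in 56.3%, 59.3% and 66.3% of barcodes. The Ly6c2 gate had 34.8, 38.4 and 36.9 CPM, the macrophage gate 31.7, 57.3 and 30.7 CPM and the Cd3 gate 35.9, 37.1 and 43.0 CPM, and these overlapped.

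Il1r2 in the Cd3 gate was also read in barcodes with few Lyz2 UMIs. Cd3 barcodes with fewer than 3 Lyz2 UMIs had 36.1, 37.7 and 34.0 CPM of Il1r2 at days 3, 7 and 14, while Il1b had there 53.7, 127 and 133 CPM, against 776, 604 and 715 CPM in the whole gate. Monocyte markers still summed to 764, 754 and 584 CPM in them and cDC2 markers to 504, 629.7 and 1098 CPM, and their part in the Il1r2 level was not tested. Among these barcodes, those with a UMI of Foxp3, the transcription factor of regulatory T cells, had 104, 95.2 and 89.4 CPM of Il1r2 (31, 43 and 77 barcodes), against 32.9, 33.4 and 27.6 CPM in those without (519, 763 and 761 barcodes). The Poisson intervals of both sets did not overlap at any day. A UMI of Il1r2 was found in 29.0%, 34.9% and 33.8% of the barcodes with Foxp3, and in 10.4%, 9.17% and 5.12% of those without. After thinning the shares were 6.20%, 7.55% and 8.36% with Foxp3 and 1.86%, 2.73% and 1.39% without. NK barcodes had 6.34, 1.06 and 0.794 CPM of Il1r2.

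Nlrp3, the sensor whose inflammasome activates caspase-1, was highest in neutrophils, with 975, 818 and 530.2 CPM at days 3, 7 and 14. There it was 1.84-fold lower at day 14 than at day 3 (1.55 to 2.18), and 70.0%, 65.1% and 59.7% of barcodes held a UMI. The macrophage gate had 185, 245 and 202 CPM, the Ly6c2 gate 149, 127 and 124 CPM and the cDC2 gate 138, 135 and 152 CPM. With all barcodes of a gate, none of these reached 1.5-fold between days, and the macrophage gate stood above the other 2. The Cd3 gate had 42.2 to 51.1 CPM, and 6.23 to 7.08 CPM in its barcodes with fewer than 3 Lyz2 UMIs. In barcodes of no other gate Nlrp3 was called higher at day 14 than at day 3 in the cDC2 and Cd3 gates. The cDC2 gate held there 162 of 912113 UMIs at day 14 against 81 of 704766 at day 3. For the Cd3 gate it was 236 of 6723123 UMIs against 93 of 4303734.

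Counted by gate, between days 14 and 3, the Ly6c2 gate had 3 members higher (Cxcl1, Cxcl2 and Cxcl3) and 2 lower (Il1rn and Il18) of 10, where 6.29% and 6.47% of all genes tested in that gate were higher and lower. The macrophage gate had the same 3 higher and Il1rn lower of 9, against 3.06% and 7.19% of all genes. Neutrophils had none higher and 3 lower (Il1a, Il1rn and Nlrp3) of 8, against 7.12% and 12.6%. The cDC2 gate had none higher and 3 lower (Il1a, Il1rn and Il18) of 7, against 7.08% and 6.6%. The Cd3 gate had the 3 chemokines higher and Il1rn lower of 9, against 4.97% and 4.77%. In Cd3 barcodes with fewer than 3 Lyz2 UMIs, Il1b alone was higher and none was lower of 8. In Cd3 barcodes of no other gate Cxcl2, Cxcl3, Il1b and Nlrp3 were higher and Cxcl1 and Il1rn lower of 9. The shares of all genes were not computed in these 2 sets. These members were chosen with results of these data known. The median log2 ratio of the measured members was -0.12 in neutrophils, -0.29 in the Ly6c2 gate, -0.05 in the macrophage gate, -0.13 in the cDC2 gate and 0.06 in the Cd3 gate. Over all genes tested the medians were -0.08, 0.01, -0.06, 0.06 and -0.06 in the same gates. Chemokines and antagonist lay on opposite sides of 0 in the Ly6c2, macrophage and Cd3 gates. These gates share barcodes and are not separate readings of 3 cell types.

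The steps from day to day were counted in the same way. From day 3 to day 7, neutrophils had none higher and 2 lower (Il1a and Il1r2) of 8, where 9.53% and 11.9% of all genes were higher and lower at day 7. The Ly6c2 gate had Cxcl1 and Cxcl3 higher and Il1a and Il1rn lower of 10 (9.3% and 5.97% of all genes), and the Cd3 gate Cxcl1 and Cxcl3 higher and Il1rn and Il18 lower of 10 (5.89% and 8.1%). The macrophage gate had Il1r2 and Il18 higher and Cxcl1, Cxcl3 and Il1a lower of 9 (5.05% and 10%), and the cDC2 gate Cxcl3 higher and Cxcl2, Il1a and Il1rn lower of 8 (4.26% and 3.25%). From day 7 to day 14, the Ly6c2 gate had Cxcl1, Cxcl2, Cxcl3 and Il1a higher and none lower of 9, where 3.3% and 5.4% of all genes were higher and lower at day 14. The macrophage gate had Cxcl1 and Cxcl3 higher and Il1rn, Il1r2 and Il18 lower of 9 (6.78% and 6.38%), with 0 Cxcl1 UMIs at day 7. Neutrophils had none higher and Il1rn and Nlrp3 lower of 8 (8.01% and 10.6%), the cDC2 gate Cxcl2 higher and Cxcl3, Il1rn and Il18 lower of 8 (5.52% and 5.68%), and the Cd3 gate Cxcl2 higher and Cxcl1 lower of 9 (5.16% and 3.25%). In the macrophage gate the Il1r2 calls to and from day 7 rested on 107 UMIs at day 7, of which 27 were in 1 barcode, and turned round without shared barcodes.

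Several of these day-to-day calls ended in barcodes of no other gate. From day 3 to day 7 they were Cxcl3 (1.36-fold), Il1rn (1.07-fold) and Il18 (1.05-fold) in the Cd3 gate, Il1r2 and Il18 in the macrophage gate, and Cxcl2, Cxcl3, Il1a and Il1rn in the cDC2 gate. From day 7 to day 14 they were Nlrp3 in neutrophils (1.42-fold), Il1a in the Ly6c2 gate (1.33-fold), Il1r2 in the macrophage gate, and Cxcl3 and Il18 in the cDC2 gate. Without shared barcodes, Il1rn in the Cd3 gate, Il1r2 and Il18 in the macrophage gate and Cxcl3 and Il1a in the cDC2 gate ended from day 3 to day 7, and Il1a in the Ly6c2 gate, Il1r2 in the macrophage gate and Cxcl3 in the cDC2 gate from day 7 to day 14. Other calls kept their direction in barcodes of no other gate but moved by over 1.5 times. These were, for the Ly6c2 gate, Cxcl1 (4.11-fold higher at day 7 than at day 3 and 9.52-fold higher at day 14 than at day 7) and Cxcl3 (3.10-fold higher at day 7 than at day 3). Cxcl3 of the macrophage gate was 11.1-fold higher at day 14 than at day 7, and Cxcl2 of the cDC2 gate 3.85-fold higher. Cxcl1 of the Cd3 gate was 1.69-fold higher at day 7 than at day 3, with 3 UMIs at day 14 against 54 at day 7.

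**Figure D4:**
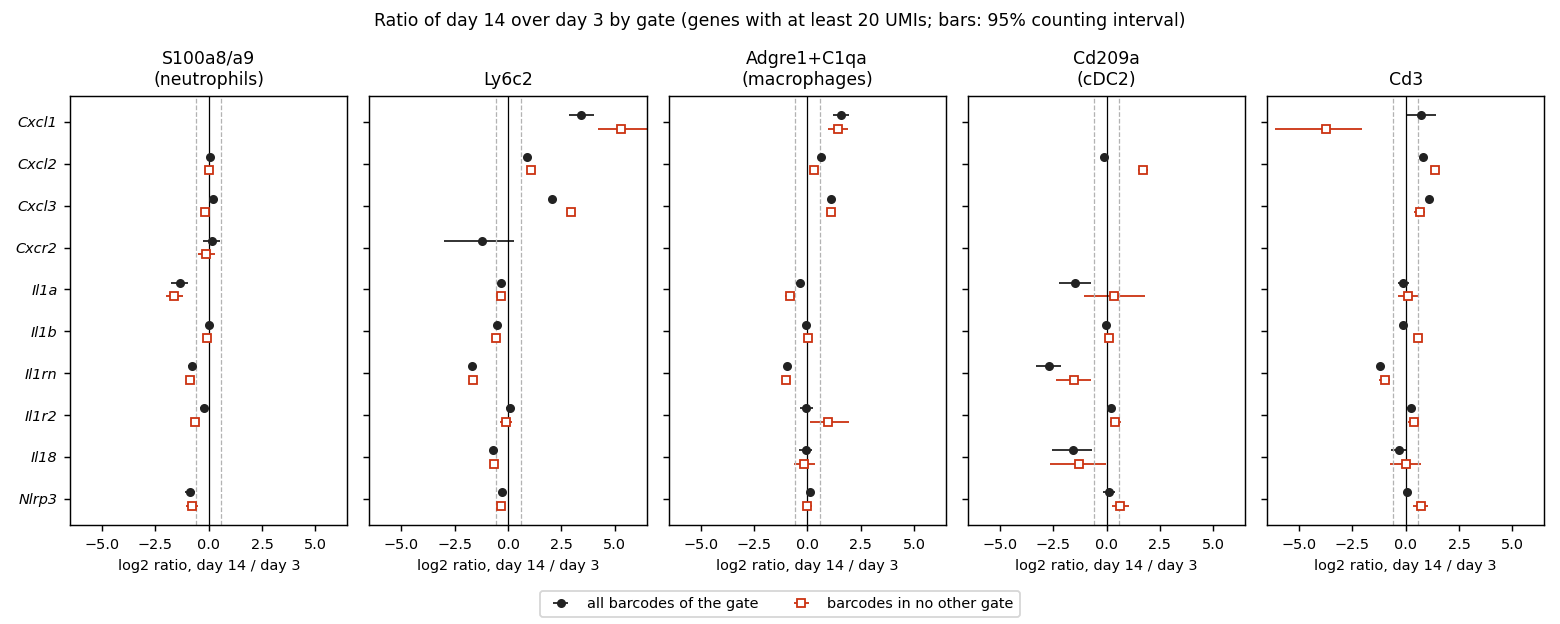
Log2 ratio of day 14 over day 3 of the members with at least 20 UMIs, by gate, with 95% counting intervals; filled circles are all barcodes of the gate, open squares barcodes in no other gate, and dashed lines mark 1.5-fold. Il1rn lies left of the lower line in each gate in both sets, and Cxcl3 lies right of the upper line in the Ly6c2, macrophage and Cd3 gates.

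Related genes were read from lists of the same pathways, in all barcodes of each gate only. Whether their calls hold in barcodes of no other gate or without shared barcodes was not tested. Beside their counts stand the shares of all genes tested that were lower at day 14 than at day 3, which were 12.6% in neutrophils, 6.47% in the Ly6c2 gate, 7.19% in the macrophage gate, 6.6% in the cDC2 gate and 4.77% in the Cd3 gate; the lists' counts are descriptions, with no test. Of the other chemokines and receptors of this class, Ppbp, the platelet chemokine CXCL7, was found mainly in the macrophage gate with 62.1, 25.2 and 66.1 CPM at days 3, 7 and 14, Cxcr1 in neutrophils with 3 UMIs at day 3 and 19 at day 14, and Cxcl5 with at most 7 UMIs in any gate and day. Among the other IL-1 family ligands, Il18bp, which encodes the soluble antagonist of IL-18, was lower at day 14 than at day 3 in all 5 gates. The Ly6c2 gate had 67.3, 22.4 and 27.6 CPM of it (2.44-fold lower at day 14 than at day 3; 2.17 to 2.74), and the macrophage gate 87.9, 57.8 and 39.2 CPM (2.24-fold lower; 1.92 to 2.63). In neutrophils it rested on 29, 10 and 4 UMIs, and in the cDC2 gate it was 2.18-fold and in the Cd3 gate 2.81-fold lower at day 14 than at day 3. The files list Il36g, an IL-1 family ligand of epithelia and neutrophils, under its older symbol Il1f9; it had 295, 467 and 209.9 CPM in neutrophils and at most 1.36 CPM in the other gates. Il33 had at most 1 UMI in any gate and day.

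Of the 7 other IL-1 family receptors, Il18r1 is a chain of the IL-18 receptor. It had 46.7, 88.2 and 87.1 CPM in the Cd3 gate, 1.86-fold higher at day 14 than at day 3. In the Ly6c2 gate it had 20.3, 47.2 and 37.6 CPM, also 1.86-fold higher at day 14 than at day 3. At days 3, 7 and 14, 30.9%, 43.6% and 39.0% of the Ly6c2 barcodes were also in the Cd3 gate. Their part in the Il18r1 level of the Ly6c2 gate was not tested. The other chain, Il18rap, had 36.6, 49.5 and 35.1 CPM in the Cd3 gate with no call, and 143, 161 and 86.1 CPM in neutrophils, 1.66-fold lower at day 14 than at day 3. Sigirr, an inhibitory member, had no call in any gate between days 14 and 3.

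Of 13 inflammasome and pyroptosis genes, none was higher at day 14 than at day 3 in any gate; 2 of 8 measured were lower in neutrophils, 5 of 13 in the Ly6c2 gate, 2 of 12 in the macrophage gate, 3 of 9 in the cDC2 gate and 0 of 11 in the Cd3 gate. Casp1, the protease that cuts the precursors of IL-1 beta and IL-18, was among the lower ones in the first 4 of these gates: the Ly6c2 gate had 122, 73.2 and 65.5 CPM (1.86-fold lower at day 14 than at day 3; 1.72 to 2.01), the cDC2 gate 134, 80.8 and 69.4 CPM and the macrophage gate 97.6, 71.8 and 59.7 CPM. Pycard, the adaptor of the inflammasome, had 377.5, 339 and 427 CPM in the Ly6c2 gate. Between days 14 and 3 it had no call in any gate, and neither had Txnip. Median log2 ratios of this list ran from -0.46 in neutrophils to -0.03 in the Cd3 gate, against -0.08 and -0.06 over all genes.

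Of 9 genes of IL-1 and Toll-like receptor signalling, none was higher, and 1 of 5 measured in neutrophils, 2 of 9 in the Ly6c2 gate, 0 of 9 in the macrophage gate, 2 of 9 in the cDC2 gate and 1 of 9 in the Cd3 gate were lower at day 14 than at day 3. Myd88, the adaptor shared by these receptors, passed the rule as lower in all but the macrophage gate. In that gate it had 82.3, 81.9 and 55.1 CPM, just short of 1.5-fold between days 14 and 3. The Ly6c2 gate had 101, 68.2 and 53.2 CPM of it (1.90-fold lower at day 14 than at day 3). In neutrophils the call rested on 34 UMIs at day 3 and 27 at day 14. Map3k8 and Irak1 had no call between days 14 and 3. Of 16 NF-kB response genes, 6 were lower and none higher in neutrophils, 8 and none in the Ly6c2 gate, 6 and none in the macrophage gate, 4 and 1 in the cDC2 gate and 2 and none in the Cd3 gate. The median log2 ratio of this list was -0.60 in the Ly6c2 gate, on the other side of 0 from the chemokine members there. Its most abundant genes Nfkbia, Zfp36 and Cd14 had no call in any gate between days 14 and 3; Nfkbia, the inhibitor that NF-kB induces, had 1579, 1033 and 1457 CPM in the Ly6c2 gate.

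Beyond the gates, a large part of the chemokine RNA was in barcodes that met no gate. Barcodes with at least 1500 UMIs outside these gates and those for NK cells, B cells and other dendritic cells numbered 444, 419 and 653 at days 3, 7 and 14, or 12.1%, 13.8% and 18.4% of each library. Over the 3 libraries together they held 45.0% of all Cxcl1, 37.5% of all Cxcl2 and 50.1% of all Cxcl3 UMIs, against 25.2% of Il1b and 16.4% of Il18. By day they held 56.8%, 25.3% and 44.7% of Cxcl1, 31.9%, 35.6% and 41.3% of Cxcl2 and 54.3%, 33.6% and 52.9% of Cxcl3, beside 20.6%, 21.7% and 33.2% of Il1b. At day 7 the share of Cxcl1 was thus near that of Il1b. Their levels were 7705, 7077 and 9556 CPM for Cxcl2, above the macrophage gate at each day and below neutrophils, and 862, 393 and 1085 CPM for Cxcl3. Il1b had 5267, 4116 and 3743 CPM there and Il1rn 579, 571 and 309.5 CPM. Chosen after their values were seen, Arg1, an arginine-degrading enzyme of tumour macrophages, had 1575, 1147 and 2504 CPM in these barcodes against 285, 183 and 639 CPM in all others, and Spp1, osteopontin, had 1667, 1088 and 3331 CPM against 409.6, 198 and 798 CPM. Lyz2, a gene of myeloid cells, had 5009, 4527 and 5307 CPM in these barcodes against 5455, 4374 and 3956 CPM in all others. An Arg1 UMI was found in 20.3%, 27.7% and 43.5% of these barcodes. C1qa, used for the macrophage gate, went the other way, with 118, 107 and 168 CPM against 300, 138 and 485 CPM. Adgre1 had 56.1, 53.4 and 61.8 CPM against 65.2, 43.6 and 67.0 CPM. In these barcodes 7 cDC2 markers summed to 6634, 7519 and 6686 CPM. Monocyte markers summed to 4456, 3829 and 4121 CPM and macrophage markers to 1930, 2124 and 2438 CPM. Neutrophil markers summed to 718, 766 and 570 CPM, against 228, 246 and 236 CPM in the Ly6c2 gate. In the neutrophil gate they summed to 10968, 10968 and 15070 CPM. Erythroid markers summed to 1239 CPM at day 3, where 0.450% of these barcodes held an Hbb-bs UMI, and to 0 and 0.305 CPM later. The barcodes were given no cell type name.

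**Figure D5:**
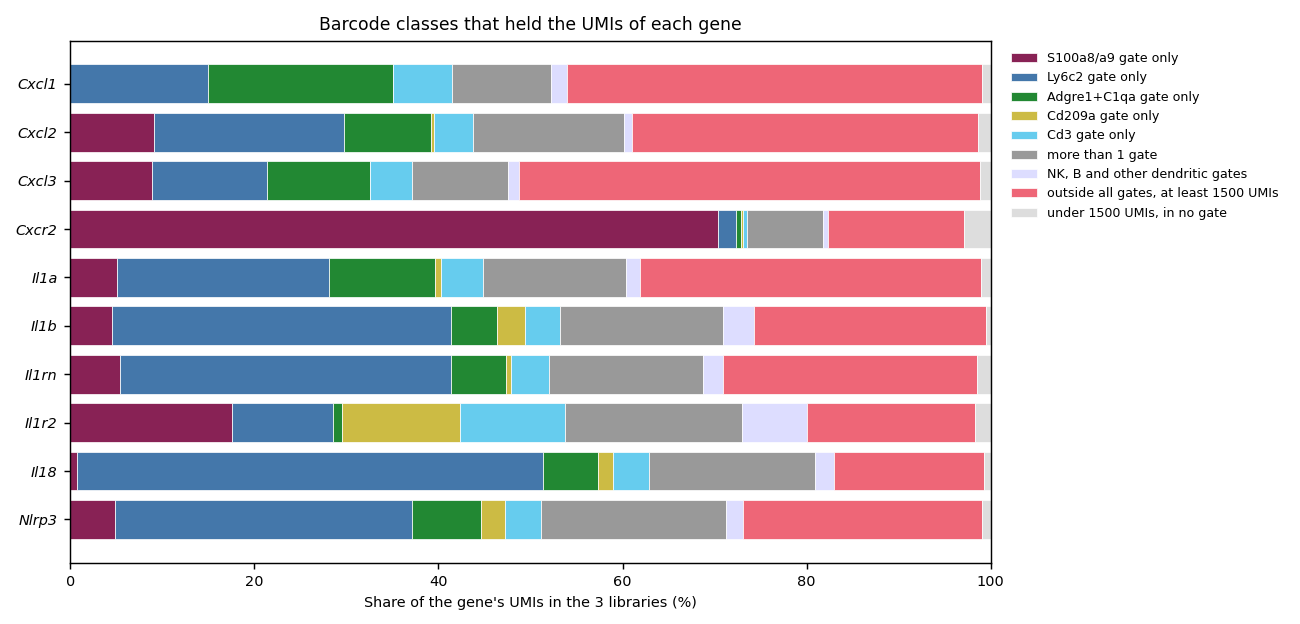
Share of each gene's UMIs (%, all 3 libraries together) by barcode class; classes do not overlap. Barcodes outside all gates hold 45.0% of Cxcl1, 37.5% of Cxcl2 and 50.1% of Cxcl3, the neutrophil gate alone holds 70.4% of Cxcr2, and the Ly6c2 gate alone 50.6% of Il18.

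Although neutrophils had the highest CPM of Cxcl2, Cxcl3, Il1b, Il1rn and Nlrp3, they held a small part of the total. Barcodes of the neutrophil gate alone carried 8.93% of all Cxcl3, 4.59% of Il1b, 5.42% of Il1rn and 4.84% of Nlrp3 UMIs. They were themselves only 2.38%, 2.50% and 3.80% of the barcodes at days 3, 7 and 14. Over the 3 libraries together the Ly6c2 gate alone carried 36.7% of Il1b, 36.0% of Il1rn and 32.3% of Nlrp3. These shares differed by day, with 46.3%, 41.6% and 21.9% of Il1b, 46.7%, 31.7% and 18.8% of Il1rn and 41.2%, 38.1% and 19.4% of Nlrp3 at days 3, 7 and 14. At day 14 the barcodes outside all gates held more, with 33.2% of Il1b, 40.5% of Il1rn and 33.4% of Nlrp3. The size of these classes differed too. The Ly6c2 gate alone was 23.6%, 19.1% and 13.5% of all barcodes at days 3, 7 and 14. Barcodes outside all gates were 12.1%, 13.8% and 18.4%. Il1r2 had 17.6% in the neutrophil gate alone, 12.7% in the cDC2 gate alone and 11.4% in the Cd3 gate alone.

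The genes with the most similar course over the 15 sums of 5 gates and 3 days were found by Pearson's r of log2 CPM among 10695 genes. The sums share libraries and barcodes, and r is given as a description. Cxcr2 was nearest to Stfa2l1 (r = 0.996) and Il1f9 (0.994), Cxcl2 to Trpm2 (0.9899), Il1b to Trib1 (0.992) and Neat1 (0.983), and Nlrp3 to Plek (0.985) and to Il1b itself (0.979). Il1a was nearest to Ccrl2 (0.975), Il1rn to Tlr6 (0.967), Cxcl3 to Sntb2 (0.940), Il1r2 to Cd24a (0.972) and Il18 to Ifi204 (0.953). Cxcl1 had no gene above the 0.853 of Nav2.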

How the data were processed

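Droplet libraries (10x 3' v3.1) were deposited by the authors as tables of UMI counts, 1 per library. The submitters' processing notes name Cell Ranger 4.0.0 and the mm10 build. No source used here gives the annotation release. The labels name a cell sorter in the sample protocol and magnetic beads in the series design for the CD45+ step, and their cell type field holds a strain. Counts were summed by gate and day, and CPM is scaled to the total UMIs of the summed barcodes. Intervals were exact (conditional Poisson for ratios, Clopper-Pearson for shares). No doublet caller was run, barcodes in more than 1 gate were kept, and no barcode was removed beyond the UMI minimum. The PCR copies of a molecule were collapsed by UMI. Poisson intervals take UMIs as independent counts and leave out the spread between barcodes, and no interval covers the spread between mice. Members, gene lists and gates were chosen with earlier results of these data known. From each list, the 3 genes with most UMIs over the 5 gates are named. Ratios were tested on simulated data; tools were Python 3.11.15, numpy 2.4.6, scipy 1.17.1, pandas 2.3.3, matplotlib 3.10.9 and, for TMM scaling, edgeR 4.0.16 in R 4.3.3. Alternatives were gates without overlap, without shared barcodes, other thresholds, depths and scalings, each barcode weighted alike, and leaving out the top barcode of each gene. Gates of Cd3 barcodes with under 3 Lyz2 UMIs and of Ly6c2 barcodes without Cd3 UMIs were added after seeing the data. The split of these Cd3 barcodes by Foxp3 was likewise not among the planned comparisons. Positions are from GENCODE M21 and promoters from RefSeq on GRCm38.p6; both are of the build mm10.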

Additional observations from a re-analysis of the deposited data

Results flagged for a closer look

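Member RNA was also found in barcodes that no comparison used, those with under 1500 UMIs that met no gate. Over the 3 libraries they held 4175 UMIs of Cxcl2, 1232 of Il1b, 320 of Il1rn, 259 of Cxcl3, 133 of Nlrp3, 120 of Il1r2, 59 of Il1a, 19 of Il18, 13 of Cxcl1 and 12 of Cxcr2, all above the 3 UMIs that a count of 0 allows. These are 1.16% of all Cxcl3 and 0.567% of all Il1b UMIs. Whether they came from shallow cells or from free RNA was not tested.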

How the results depend on the processing

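No paired analysis was possible because each day had 1 library, and for the same reason no replicate could be left out; the spread between mice is unknown, and low counts limit Cxcl1, Il18 in neutrophils and Il1a in the cDC2 gate. Of 126 alternative counts of called members between days 14 and 3, 107 lay within 1.5 times of the reported count. This compared numbers and not the genes called, and equal counts of 0 were among the 107. In barcodes of no other gate the 3 higher in the macrophage gate were Cxcl1, Cxcl3 and Il1r2. The 4 higher in the Cd3 gate were there Cxcl2, Cxcl3, Il1b and Nlrp3, and Cxcl1 was lower. In the neutrophil gate, requiring Csf3r or Retnlg and under 3 Ly6c2 UMIs gave 1 higher (Cxcl3), and a threshold of 2-fold left 1 lower. In the Ly6c2 gate the lower count was 4 with every barcode weighted alike and 1 at 2-fold. In the macrophage gate doubled thresholds left 1 higher, and the lower count was 2 in barcodes of no other gate, 2 without shared barcodes and 0 at 2-fold. In the cDC2 gate 2 were higher in barcodes of no other gate and 1 with no UMI minimum per gene, and 1 was lower at 100 UMIs or more. In the Cd3 gate 1 was higher under each of doubled thresholds, equal weights, under 3 Lyz2 UMIs and 2-fold, and the lower count was 2 in barcodes of no other gate, 3 with equal weights, 0 under 3 Lyz2 UMIs and 2 with no UMI minimum. Some log2 ratios changed sign. In the macrophage gate Il1r2 at day 7 over day 3 became -0.23 without shared barcodes and -0.30 with doubled thresholds, and at day 14 over day 7 it became 0.25 in barcodes of no other gate, 0.11 without shared barcodes and 0.63 with doubled thresholds. In the cDC2 gate Il1a at day 7 over day 3 became 0.45 in barcodes of no other gate and 0.046 without shared barcodes, and at day 14 over day 3 it became 0.33 in barcodes of no other gate. Il1rn at day 7 over day 3 became 0.35 there. Cxcl3 at day 14 over day 7 became 0.47 there, 3.37 without shared barcodes and 2.38 without the top barcode. In the Cd3 gate Cxcl3 at day 7 over day 3 became -0.58 with doubled thresholds, and Il1rn became 0.12 under 3 Lyz2 UMIs. Cxcl1 there became 2.82 at day 14 over day 7 with doubled thresholds, and at day 14 over day 3 it became -3.76 in barcodes of no other gate and -0.72 with equal weights. Apart from what overlap, shared barcodes and single barcodes show by construction, the cause was not tested.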

Other observations

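Barcodes with a Cxcl3 UMI also held more Cxcl2 than those without. In neutrophils Cxcl2 had 52911, 29301 and 44643 CPM in the barcodes with Cxcl3 at days 3, 7 and 14, against 16495, 18825 and 20247 CPM in those without, at median depths of 2501.5, 2836 and 2664 UMIs against 2048, 2237 and 2255. In the Ly6c2 gate the values were 6178, 6381 and 7214 CPM with Cxcl3 and 1291, 1016 and 1734 CPM without. The barcodes with Cxcl3 were deeper, and the part of depth in this was not tested.

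Gates meant for other dendritic cells held members too. The gate of type 1 conventional dendritic cells had 2171, 1831 and 1229 CPM of Il1b and 259.6, 86.4 and 53.1 CPM of Il1rn at days 3, 7 and 14, and that of migratory dendritic cells had 667, 435 and 615 CPM of Il1b and 97.1, 28.8 and 28.1 CPM of Il1rn. Most barcodes of both gates were also in the 5 gates above. For the type 1 gate these were 76.8%, 67.5% and 59.8%, with 64.5%, 42.5% and 34.3% in the Ly6c2 gate. For the migratory gate they were 68.4%, 80.2% and 71.0%, with 63.1%, 77.2% and 67.7% in the Cd3 gate. The part of other cells' RNA in these values was not tested.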
